A study of Mus musculus with 5 samples.

Results

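Foxa1 reads were examined at 3 genes that are best known from the beta cells of the pancreas, Pdx1, Pax4 and Slc30a8, in chromatin from adult liver. The study lists intervals near diabetes genes that it called bound by both Foxa1 and Foxa2 in liver. The list has 34 lines, 33 distinct intervals and 26 genes, and the 3 intervals named for Pdx1, Pax4 and Slc30a8 were taken here, each with 100 kb on either side. The study placed these intervals with the libraries examined here and with Foxa2 and input libraries that were not examined. Some excess of Foxa1 reads in the intervals thus follows from their choice. The folds, p-values, strand order and called windows at these intervals are therefore no independent evidence of binding. The same holds for their height over the surroundings. The series holds 1 condition. All 5 libraries came from livers of wild-type male mice of the CD1 outbred strain, 2 to 3 months old, and 100 mg of frozen tissue was used to prepare each chromatin. DNA was precipitated with an antiserum specific for Foxa1 and amplified in 18 cycles of PCR. No knockout or input library was analysed here, so the flanks of each interval served as the background. The whole liver holds several cell types, and fewer bound cells cannot be told apart from weaker binding in each cell.

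Foxa1 is a winged-helix protein that binds forkhead motifs and can engage DNA in closed chromatin, and with its paralog Foxa2 it acts in the development of both liver and pancreas. Pdx1 is a homeodomain factor needed to form the pancreas and, in mature beta cells, to keep the insulin gene active. Pax4 is a paired-box factor that directs endocrine precursors toward the beta cell fate. Slc30a8 encodes ZnT8, the transporter that loads zinc into insulin granules. Hepatocytes, the main cells of the liver, are not known for any of these functions.

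The libraries differed in how many reads were independent. Reads of a library with the same strand and 5′ end were counted once, since PCR copies 1 fragment many times. This left 1473182 to 4742472 distinct reads per library and 18032047 in all, or 21.1% to 93.1% of the reads. Replicates 4 and 5 kept the smallest shares, 57.6% and 21.1%, and replicate 5 was the shallowest. The pooled genome mean was 1.37 distinct reads per 200 bp. The names of the reads begin with the same prefix in replicates 4 and 5 and with other prefixes in replicates 1 to 3. What these prefixes stand for is not given. The study describes its Foxa1 libraries as 5 biological replicates, while the file headers give 4 mouse labels for the 5 libraries. Replicates 3 and 4 share 1 label, and whether these came from the same animal is not known.

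The Pdx1 interval carried the clearest Foxa1 signal of the 3 genes. This interval of 256 bp runs from 147610000 to 147610255 on chromosome 5 (mm8). Replicates 1 to 5 held 4, 9, 1, 9 and 1 distinct reads, where their flanks of 5 kb on each side gave 0.230, 0.333, 0.614, 0.384 and 0.154. Every library was thus above its own flanks, with replicates 2 and 4 far above and replicates 3 and 5 by less than 1 read. Since these flanks give less than 1 read in each library, any library with a read is above them. Pooled, the 24 reads stood 14-fold over the 1.72 that the flanks give (exact 95% interval 8.39 to 22.6, adjusted p = 6.66e-17 by an exact binomial test, one-sided and adjusted over the 33 intervals). With the interval widened by 100 bp the fold was 8.31 (adjusted p = 3.08e-12, exact). On their own, replicates 1, 2 and 4 had exact binomial p of 0.000232, 1.39e-09 and 3.50e-09, and replicates 3 and 5 had 0.468 and 0.162. The excess over the flanks was 1.14 ± 0.82 reads per 1000000 distinct reads of the library (SD, n = 5), above 0 in 5 of 5 libraries. An exact sign-flip permutation test over libraries gave its smallest one-sided p, 0.031, which adjusted over the 33 intervals was 0.0764. This smallest p was reached at 11 of the 33 intervals, and 0 of the 33 had an adjusted p below 0.05 by this one-sided test. The sign-flip test takes an excess without enrichment to be symmetric about 0, which counts this low need not be. The two-sided p, 0.062, is likewise the smallest that 5 libraries allow.

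The strand of the reads at Pdx1 was examined next. Fragments around a bound point give plus-strand 5′ ends before it and minus-strand ends after it. The 5 libraries gave 15 plus-strand and 9 minus-strand reads in the interval, at median offsets of -41 and 56 bp from its middle. The shift of 50 bp toward the fragment centre decides which reads count as inside, and by itself places the offsets of both strands on opposite sides, so these medians are a description. In replicate 2 the plus-strand ends lay at -108, -54, -43, -41, -31 and 31 bp and the minus-strand ends at 15, 54 and 56 bp. In replicate 4 the plus-strand ends lay at -70, -53, -27 and -26 bp and the minus-strand ends at -5, 29, 62, 81 and 82 bp. Only 1 read of each of these libraries lay on the side opposite to its strand. Within 150 bp of the middle, 21 of 24 reads were on the side of their strand (87.5%, adjusted p = 0.00538, one-sided Fisher exact test over the 33 intervals). Since the interval was placed with these reads, the order around its middle is no independent evidence. Without replicate 2 or replicate 4 the adjusted p was 0.0551 or 0.0982 by the same exact test.

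**Figure D1:**
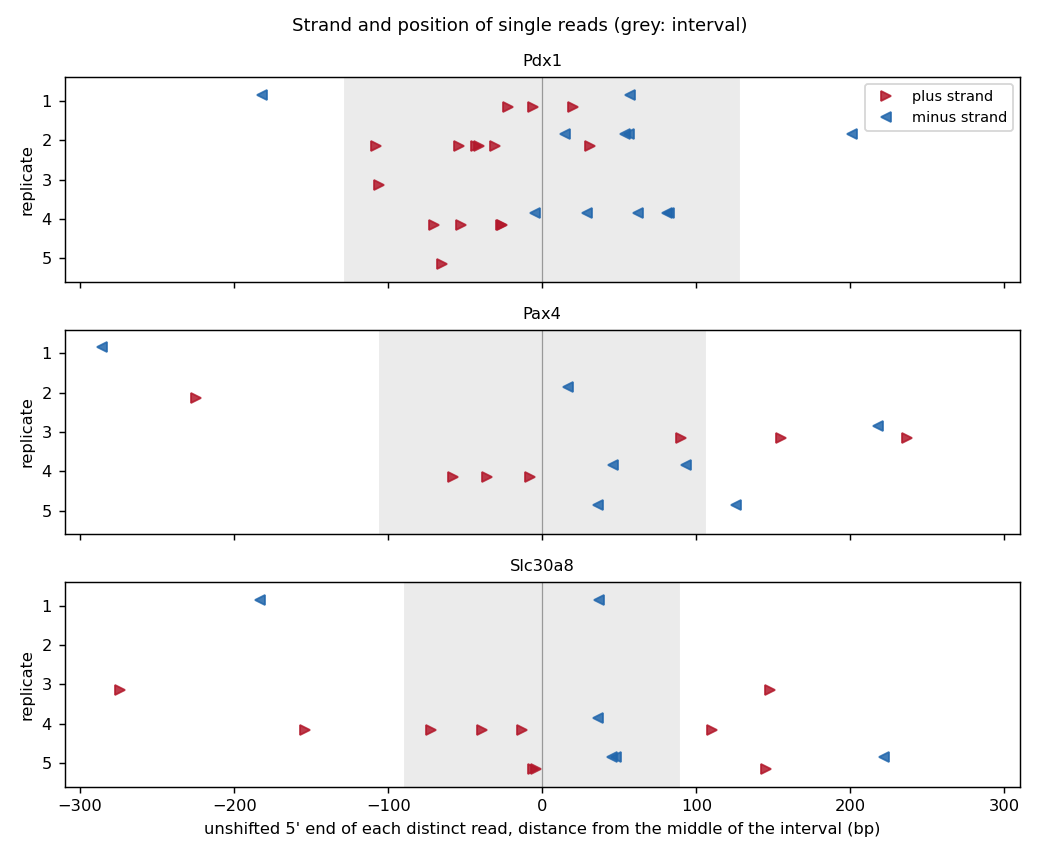
Each triangle is the unshifted 5′ end of 1 distinct Foxa1 read within 300 bp of the middle of an interval (horizontal axis, bp), by replicate (vertical axis), with plus-strand reads in red pointing right, minus-strand reads in blue pointing left and the interval in grey. At Pdx1 the plus-strand reads lie mostly left and the minus-strand reads mostly right of the middle, while the few reads in the Pax4 and Slc30a8 intervals come mostly from replicates 4 and 5.

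At Pax4 the signal was weaker and came from fewer libraries. The interval runs from 28409269 to 28409479 on chromosome 6 and spans 211 bp. Replicates 1 to 5 held 0, 1, 0, 5 and 2 distinct reads, where their flanks gave 0.464, 0.443, 0.295, 0.485 and 0.211. Replicate 4 was well above its flanks, replicates 2 and 5 were above them by less than 2 reads, and replicates 1 and 3 held none. A count of 0 in a single library allows up to 3 reads, which would be 6.46-fold in replicate 1 and 10.2-fold in replicate 3. For each library alone, a fold as high as in the pool is thus not excluded. These limits do not hold for replicates 1 and 3 as a set, which was not tested. Pooled, the 8 reads stood 4.21-fold over the flanks (exact 95% interval 1.76 to 8.66, adjusted p = 0.00114 by the exact binomial test). Without replicate 4 the fold was 2.12 and the adjusted p 0.176 by the same exact test. The excess was 0.416 ± 0.624 reads per 1000000 (SD, n = 5), and 3 of 5 libraries were above 0 (p = 0.188, one-sided, by exact sign-flip permutation, and 0.193 adjusted over the 33 intervals). Without replicate 5 the mean excess was 0.217.

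The 8 reads counted at Pax4 lay as follows. Replicate 4 held plus-strand ends at -58, -36 and -8 bp and minus-strand ends at 46 and 93 bp. Replicate 5 held minus-strand ends at 36 and 126 bp, and replicate 2 held 1 at 17 bp. Since the shift selects ordered reads, the order was tested on all 5′ ends within 150 bp of the middle, shifted inside or not. Of these, 8 of 9 were on the side of their strand (88.9%, adjusted p = 0.0786, one-sided Fisher exact test over the 33 intervals), the exception being a plus-strand end of replicate 3 at 90 bp, which the shift puts outside the interval. Leaving out replicate 3 removes that only exception, so that 100% were on the side of their strand (adjusted p = 0.0421, exact), and this pass adds no evidence. As at Pdx1, the interval was placed with these reads, so the order around its middle is no independent evidence. With each other replicate left out the exact adjusted p lay between 0.0873 and 1.

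At Slc30a8 the reads came almost wholly from replicates 4 and 5. Here the interval, the narrowest of the 3 at 178 bp, runs from 51926173 to 51926350 on chromosome 15. Replicates 1 to 5 held 1, 0, 0, 4 and 4 distinct reads, where their flanks gave 0.320, 0.356, 0.267, 0.249 and 0.0356. Replicates 4 and 5 were above their flanks by nearly 4 reads each, replicate 1 by less than 1 read, and replicates 2 and 3 held none. For each of these libraries alone, a count of 0 allows up to 8.43-fold in replicate 2 and 11.2-fold in replicate 3. These limits do not hold for replicates 2 and 3 as a set, which was not tested. Pooled, the 9 reads stood 7.33-fold over the flanks (exact 95% interval 3.22 to 14.7, adjusted p = 1.35e-05 by the exact binomial test). The fold was 5.11 without replicate 4 and 4.19 without replicate 5, with exact binomial adjusted p of 0.00577 and 0.0110. With the interval widened by 100 bp it was 4.60, and with all copies counted it was 25.3. The excess was 0.711 ± 1.16 reads per 1000000 (SD, n = 5), with 3 of 5 libraries above 0 (p = 0.125, one-sided, by exact sign-flip permutation, and 0.138 adjusted over the 33 intervals). Without replicate 5 the mean excess was 0.216. Replicate 5, the shallowest library, had the highest value at 2.69 reads per 1000000, and its flanks held only 2 reads.

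The reads at Slc30a8 lay close together. Replicate 4 held plus-strand ends at -72, -39 and -13 bp and a minus-strand end at 36 bp. Replicate 5 held plus-strand ends at -6 and -4 bp and minus-strand ends at 45 and 48 bp, and replicate 1 held a minus-strand end at 37 bp. Of all 5′ ends within 150 bp of the middle, 9 of 12 were on the side of their strand (75.0%, adjusted p = 0.106, one-sided Fisher exact test), because plus-strand ends of replicates 3, 4 and 5 at 148, 110 and 145 bp lay beyond the end of the interval. Replicate 5 read these positions many times, with 16, 9, 6 and 4 copies of its 4 distinct reads, so 35 of the 41 reads that were deposited in the interval came from 4 read positions. No read position at the 3 intervals was shared between libraries.

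**Figure D2:**
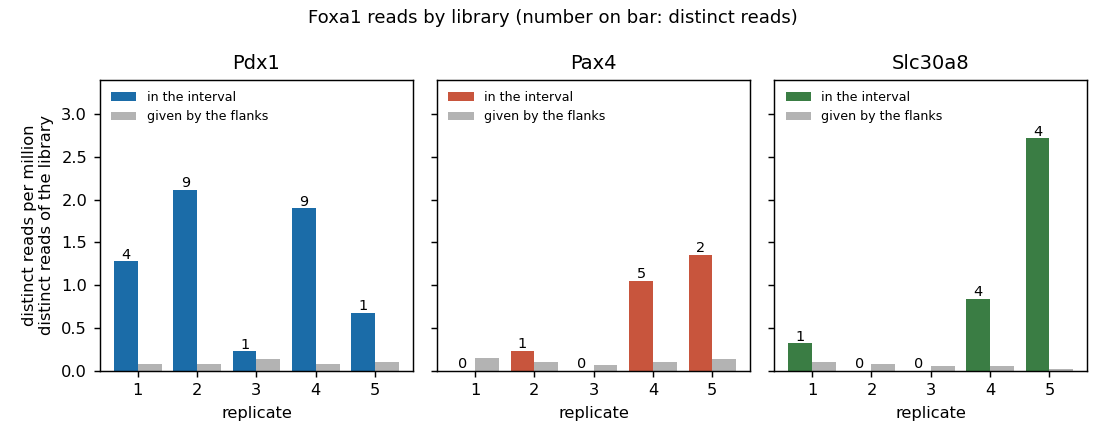
Bars give the distinct Foxa1 reads per 1000000 distinct reads of each library in the interval (coloured, with the number of reads above) and the number that its flanks give for the same width (grey), by replicate. Pdx1 holds at least 1 read, and so is above its flanks, in all 5 libraries. Pax4 and Slc30a8 each have 2 libraries with 0 reads and their highest values in replicates 4 and 5.

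All 3 intervals passed the adjusted p of 0.05, as did 100% of the 33 intervals of the list, so passing sets none of them apart. Because the list was placed with these reads, passing is no independent test of binding either. The differences lie in size. Pdx1 had the highest fold of the 33 and the third highest count of reads, Slc30a8 ranked 10 by fold and 26 by reads, and Pax4 ranked 29 and 28. The first rank of Pdx1 rested on replicate 2, without which it ranked 6 at 10.9-fold, and with all copies counted Slc30a8 at 25.3-fold stood above Pdx1 at 11.4-fold. Without replicate 4 or replicate 5, Slc30a8 ranked 21 or 25 by fold. The median of the 3 folds was 7.33, beside 6.51 over all 33 intervals, which ranged from 2.69 to 14. Of the 3, only Pdx1 was above its flanks in every library, as were 33.3% of the 33 intervals, and only Pdx1 passed the test of strand order, as did 45.5%. Being above the flanks in every library means here only that no library held 0 reads.

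**Figure D3:**
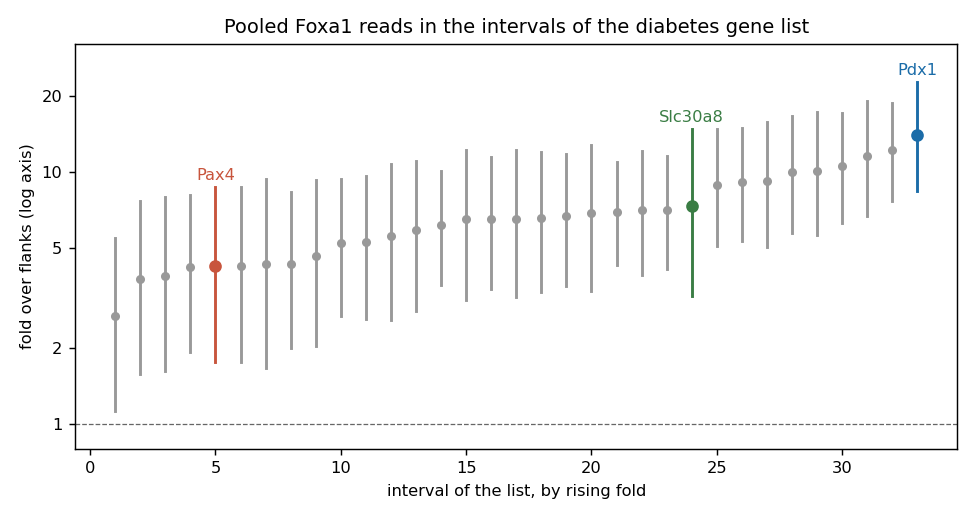
Each point is the fold of pooled distinct reads over the flanks for 1 of the 33 intervals (log axis), ordered by rising fold, with the exact 95% interval of the counts as a line. With all 5 libraries Pdx1 is the highest at 14 (rank 6 without replicate 2), Slc30a8 at 7.33 and Pax4 at 4.21 lie among the others, and the lines of neighbours overlap.

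The 3 pairs of genes were compared by the ratio of their folds. Pdx1 stood 3.32 times higher over its flanks than Pax4 (exact 95% interval 1.33 to 9.04, adjusted p = 0.0181 over the 3 pairs, two-sided Fisher exact test that allows for the widths). With flanks of 2 or 10 kb the ratio was 2.55 or 2.69 and the adjusted p 0.156 or 0.0716 (exact). Without replicate 1 or replicate 2 it was 2.42 or 2.26 with an adjusted p of 0.179 or 0.267 (exact), and without replicate 4 it was 5.31, so the call rested on the flanks and libraries chosen. Between Pdx1 and Slc30a8 the ratio was 1.91 (0.782 to 5.00, adjusted p = 0.249, exact). It was 3.51 without replicate 5 (adjusted p = 0.0268, exact) and turned to 0.452 when all copies were counted (adjusted p = 0.00598, exact), where the copies of 1 fragment are not independent. Between Pax4 and Slc30a8 the ratio was 0.575 (0.183 to 1.78, adjusted p = 0.306, exact), and with all copies counted it was 0.222 (adjusted p = 1.95e-06, exact, under the same limit). The intervals of both these ratios hold 1 as well as differences of several-fold. Across libraries, the excess at Pdx1 was higher than at Pax4 in 4 of 5 and higher than at Slc30a8 in 4 of 5, and the smallest unadjusted p of the exact sign-flip permutation tests of the pairs was 0.188 (two-sided, adjusted 0.562). With 5 libraries this test cannot go below 0.062, so it could not pass 0.05 for any pair.

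The reads were also counted separately in replicates 1 to 3 and in replicates 4 and 5. The 2 sets were formed after the reads were seen, so their values are a description. Where these sets are said elsewhere to pass or not pass a threshold, that is a description too. Replicates 4 and 5 share 1 prefix of their read names, while replicate 1 has another and replicates 2 and 3 a further one. At Pdx1, replicates 1 to 3 held 14 of the 24 reads and were 11.9-fold over their flanks, and replicates 4 and 5 held 10 and were 18.6-fold. At Pax4, replicates 1 to 3 held 1 of 8 reads (0.831-fold) and replicates 4 and 5 held 7 (10.1-fold). At Slc30a8, they held 1 of 9 (1.06-fold) and 8 (28.1-fold). Replicates 1 to 3 thus gave 58.3% of the reads at Pdx1, 12.5% at Pax4 and 11.1% at Slc30a8. The other intervals of the list, pooled, gave 42.2 to 43.6%. Slc30a8 and Pax4 had the lowest shares of the 33 intervals, and these shares rest on 9 and 8 reads. The remaining single intervals ranged from 14.3% to 81.8%. The fold was higher in replicates 4 and 5 at 29 of the 33 intervals, with medians of 4.16 in replicates 1 to 3 and 9.44 in replicates 4 and 5. The part of copies, depth and whatever the prefixes stand for in these values was not tested.

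Over all 5 libraries, the fold differed between single libraries at Slc30a8 (adjusted p = 0.00351, two-sided Fisher exact test of 2 by 5 counts over the 33 intervals), and such a difference was found at 9.09% of the 33. This test sets the libraries against counting error only, and at Slc30a8 replicate 5 entered it with 4 reads over 2 flank reads. At Pdx1 the adjusted p was 0.0899 and at Pax4 0.151 by the same exact test. Replicate 3 had the fewest reads for its depth, with 1 read over the 3 intervals together. In the other 30 intervals of the list it also had the lowest fold, 2.27 against 6.17 to 11.6 in the remaining libraries, and held 0 reads in 13 of them.

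**Figure D4:**
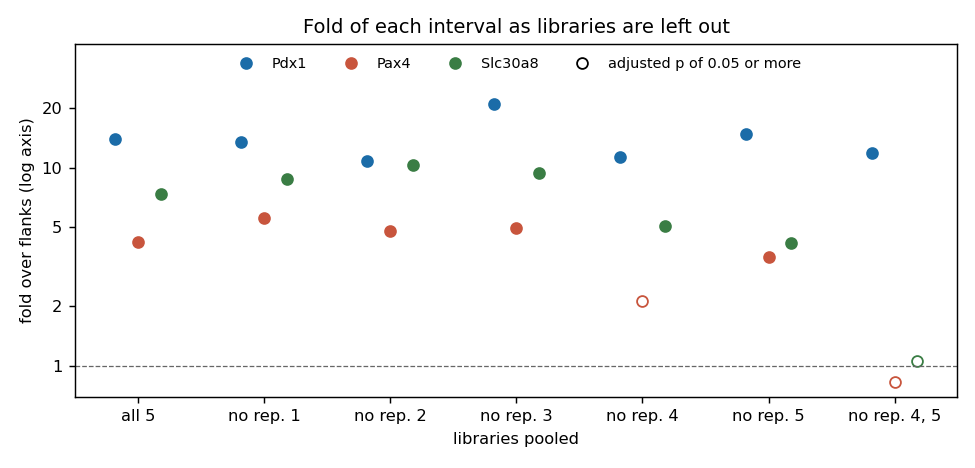
Points give the fold of pooled reads over the flanks (log axis) for each gene with all 5 libraries, without each in turn and without replicates 4 and 5, filled where the adjusted p over the 33 intervals is below 0.05. Pdx1 stays between 10.9 and 20.9 as single libraries are left out, Pax4 drops to 2.12 without replicate 4, and without replicates 4 and 5 Pax4 and Slc30a8 lie at 0.831 and 1.06. The set without replicates 4 and 5 was chosen after seeing the data, so its filled and open points are a description.

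The surroundings show on what level the intervals stand. The 1000 bins of 200 bp around Pdx1 held 1513 distinct reads, a mean of 1.51 per bin, and no bin exceeded 9. The interval itself held 18.8 reads per 200 bp, 12.4 times that mean and above every bin. Around Slc30a8 the bins held a mean of 1.36 and at most 8 reads, and the interval, at 10.1 per 200 bp, was again above each of them. Around Pax4 the mean was 1.62 and the maximum 9, and the interval, at 7.58 per 200 bp, was reached by 2 bins. Relative to the genome mean of each library, the surroundings had a density of 1.10 ± 0.14 at Pdx1, 1.2 ± 0.07 at Pax4 and 0.991 ± 0.029 at Slc30a8 (SD, n = 5). The Pax4 surroundings were above the genome mean in every library, at 1.12 to 1.31. The genome mean was taken over each chromosome up to its last read, with no correction for parts where reads cannot be placed. A density above 1 is therefore no measure of Foxa1 signal. Empty bins made up 28.3% at Pdx1, 25.1% at Pax4 and 33.2% at Slc30a8, where the longest empty stretch was 4.4 kb.

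The read density was highest within 100 bp of the middle at each gene. Within 100 bp of the middle of the Pdx1 interval there were 24 reads per 200 bp, from 100 to 300 bp there was 1, and from 300 to 1000 bp 2.14. At Pax4 these values were 8, 2.5 and 2.29, and at Slc30a8 they were 9, 4 and 1.14. Beyond 1 kb the density stayed between 1.30 and 1.73 at all 3 genes. The read density at Pdx1 thus fell to the level of its surroundings within 100 bp, whereas at Slc30a8 the 8 reads between 100 and 300 bp came from 4 libraries with 2 each.

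**Figure D5:**
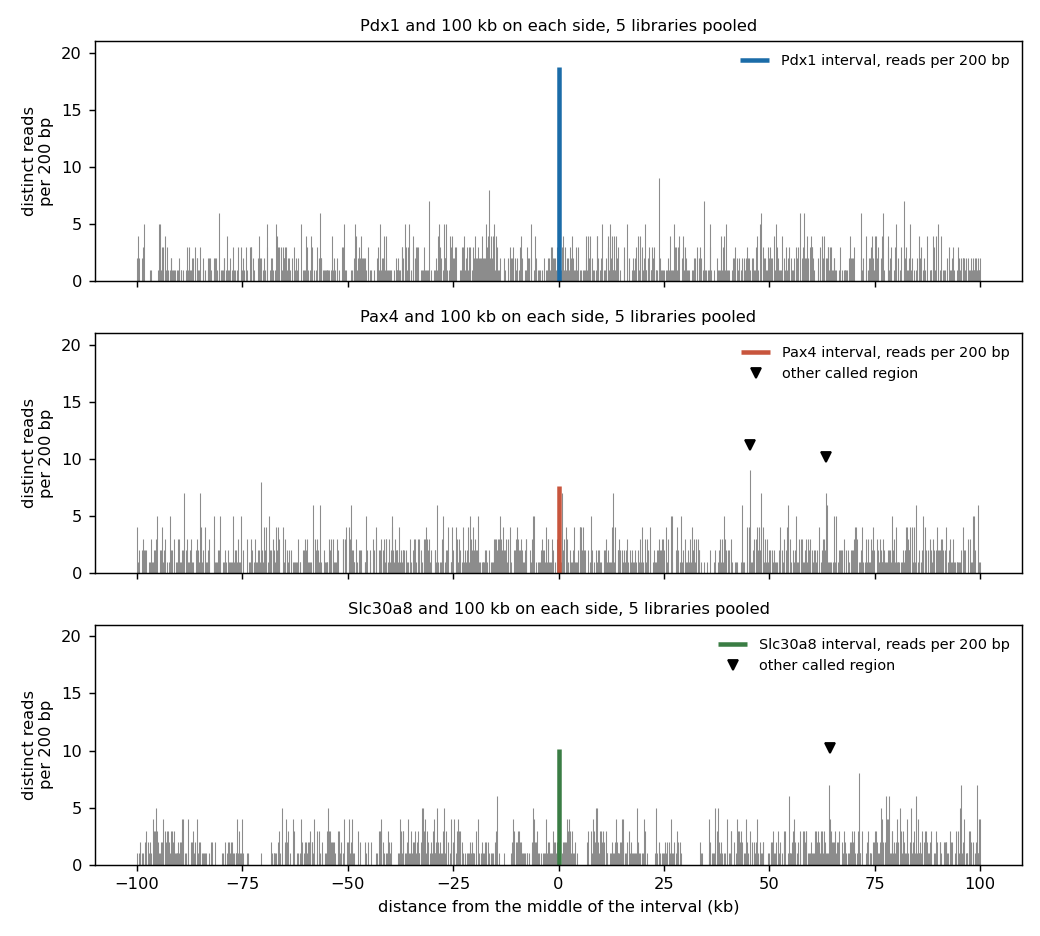
Grey lines give the distinct reads of 5 pooled libraries in bins of 200 bp against the distance from the middle of the interval (kb), the coloured line gives the interval itself scaled to 200 bp, and triangles mark other regions called across the genome. The Pdx1 interval rises to 18.8 over bins of at most 9, while Pax4 at 7.58 lies near the height of the highest bins around it.

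Across the genome, windows of 200 bp were tested against a background, either the mean of the genome or that of 5 kb on each side, whichever was higher. The test was a one-sided Poisson test, with a 5% false discovery rate over the 34334257 windows that held a read. Of these windows, 0.0797% passed and merged into 11791 regions. Leaving out empty windows makes this rate more lenient than one over all windows. At Pdx1 the best window held 24 reads, 15.2-fold over its background, with an adjusted p of 3.65e-16 by this Poisson test. At Slc30a8 the best window held 10 reads and 7.29-fold, with an adjusted p of 0.00459. At Pax4 it held 9 reads and 5.47-fold, and its adjusted p of 0.0643 left it outside the called regions. The intervals of Pdx1 and Slc30a8 thus overlapped a called region, as did 75.8% of the 33 intervals of the list. Slc30a8 overlapped none without replicate 4 or without replicate 5, and Pax4 overlapped one without replicate 1 or without replicate 2.

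Within 100 kb, 3 other regions were called, and all held counts near the lowest that can be called, 9 reads. The first lies 45.3 kb from the Pax4 interval, on chromosome 6 from 28454601 to 28454800, with 1, 1, 2, 3 and 3 reads in replicates 1 to 5, 6.08-fold over its background. The second lies 63.5 kb from it, from 28472751 to 28472950, with 0, 1, 1, 5 and 2 reads and 6.04-fold. The third lies 64.3 kb from the Slc30a8 interval, on chromosome 15 from 51990451 to 51990650, with 1, 2, 0, 2 and 4 reads and 6.14-fold. Of the 3 regions, the first was the only one with reads in every library, and the genome holds on average 0.896 regions per 200 kb. Around the middle of these regions, 6 of 12, 7 of 11 and 6 of 9 reads lay on the side of their strand. No other region was called within 100 kb of Pdx1. With no shift, at a false discovery rate of 1%, or without replicate 4 or replicate 5, 0 of these 3 regions were called.

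Pdx1 (gene ID 18609), Pax4 (18506) and Slc30a8 (239436) are single genes in a RefSeq table of GRCm38.p6, on chromosomes 5, 6 and 15 as in the list. Among protein-coding genes of that table, Pdx1 lies between Gsx1 and Cdx2, both homeobox genes. Pax4 lies between Fscn3 and Snd1, and Slc30a8 between Aard and Med30. The build differs from mm8, so no distance to a start site, exon or intron was computed, and the sequence of the intervals was not analysed here.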

How the data were processed

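For each of 5 Foxa1 ChIP libraries, the authors deposited a list of reads, with no count or score. These are reads of 36 nucleotides placed by ELAND on build mm8, where each had a single best match. The lists still hold the copies. Positions were read as BED, with starts counted from 0. From these positions, reads of a library with the same strand and 5′ end were kept once, each 5′ end was moved by 50 bp in the direction of its fragment, and mitochondrial reads were left out. Flanks were 5 kb on each side, from 1 kb beyond the interval. Windows of 200 bp were placed every 50 bp on 21 chromosomes. Their background was the genome mean or, where it was higher, the local mean of 5 kb to either side, leaving out the central 1000 bp. The Benjamini-Hochberg adjustment covered the 33 intervals, the 3 pairs or all windows with a read. The pair test took the ratio of the interval widths as its odds ratio without a difference. The sign-flip p was planned with an adjustment over the 3 genes and is given over the 33 intervals.

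The genes and the tests were chosen with earlier results of these data known. The rule named the 3 genes and regions called near them, and a further group of intervals of the list is not reported here. Alternatives were the copies, the shift, the flanks, the background, the width, the false discovery rate, the strand window, replicates 3 and 4 as 1 unit and each replicate left out. Pairs of replicates left out and the values of replicates 1 to 3 beside those of 4 and 5 were chosen after seeing the data. Intervals are 95% intervals, cover counting error only, and treat distinct reads as independent. Analyses used Python 3.11.15, NumPy 2.4.6, SciPy 1.17.1, pandas 2.3.3 and Matplotlib 3.10.9, and were tested on simulated reads with planted sites.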

Additional observations from a re-analysis of the deposited data

Results flagged for a closer look

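At Slc30a8, the fold of replicate 5 over its flanks was 112, far from the other 4 libraries, of which the next highest was 16.1. The gap was 0.857 of the range of the 5 values. The value rests on 4 distinct reads in the interval and 2 in the flanks. Of the 11 sets of 5 values examined, 1 was picked out in this way. Chance picks out about 1 in 20 where values are independent and normally distributed. Folds of counts this low need not be, so that rate may not apply here.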

How the results depend on the processing

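Of 237 alternative values, 189 kept their side of the threshold, stayed within 1.5 times a count or moved by less than the spread between libraries, 12 newly passed it, 14 no longer did, 19 moved and 3 reversed, and the causes were not tested. Among the 189, the strand order at Pax4 and Slc30a8 was 50% without replicates 4 and 5, and the density around Slc30a8 was 1.01 with all copies counted. With all reads as deposited, copies of 1 fragment enter as separate reads, so the p-values of this setting are too small. The adjusted p of the difference between libraries was 0.00476 at Pdx1 and 0.0343 at Pax4 (exact), and the strand order at Pax4 (94.7%) and Slc30a8 (82%) was past the threshold. The fold at Slc30a8 was 25.3, the ratio of Pdx1 to Slc30a8 turned to 0.452, that of Pax4 to Slc30a8 was 0.222 and newly passed, 701244 regions were called, 181 others lay within 100 kb, and Pax4 overlapped 1. A background of the genome mean alone gave 45212 regions, 7 others nearby and 1 at Pax4. A shift of 100 bp gave 7585 regions, no shift left 0 others nearby, and a false discovery rate of 1% gave 5766 regions and 0 others. With the intervals widened by 100 bp, the folds were 8.31, 3.36 and 4.60 at Pdx1, Pax4 and Slc30a8, and 31 of the 33 intervals passed. With flanks of 2 or 10 kb, the ratio of Pdx1 to Pax4 was 2.55 or 2.69 and did not pass.

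Without replicates 4 and 5, chosen after seeing the data, 20 of the 33 intervals passed and 1 of the 3 genes, Pdx1. Passing or not passing in this set, or with replicates 4 and 5 only, is a description and no test. The fold at Pax4 turned to 0.831 and that at Slc30a8 was 1.06, the strand order at Pdx1 was 85.7% and did not pass, and the ratio of Pdx1 to Slc30a8 was 11.2. Of 2980 regions, 1 lay at the 3 genes, 0 at Slc30a8 and 0 elsewhere within 100 kb. With replicates 4 and 5 only, the strand order at Pdx1 was 90% and did not pass, and the ratios of Pdx1 to Pax4 and to Slc30a8 were 1.85 and 0.662, the latter reversed.

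With each replicate left out in turn, the fold ranged from 10.9 to 20.9 at Pdx1, from 2.12 (without replicate 4) to 5.58 at Pax4 and from 4.19 to 10.3 at Slc30a8. The strand order ranged from 86.7 to 90% at Pdx1 and from 75 to 100% at Pax4. The ratio of Pdx1 to Pax4 ranged from 2.26 to 5.31 and did not pass without replicate 1 or 2, and that of Pdx1 to Slc30a8 from 1.05 to 3.51, passing without replicate 5. From 6514 regions (without replicate 4; 7293 without replicate 5) to 14098 (without replicate 1) were called, with 1 to 3 of the genes among them, 0 to 1 at Pax4, 0 to 1 at Slc30a8 and 0 to 4 others nearby. Without replicate 4, 2 of the 3 genes passed over their flanks. Depth limits the single libraries, whose flanks give less than 1 read at each of the 3 genes.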
